A study of Homo sapiens with 4 samples.

Results

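The proteasome genes analysed here were the genes whose symbol starts with PSMA, PSMB, PSMC, PSMD, PSME, PSMF or PSMG followed by a number, chosen by symbol, with no measured value in the rule. 46 of the 39323 genes in the tables answered to this rule once the inducible catalytic subunits other than PSMB10 were set aside. PSMA8, an alpha subunit of the testis, was listed at 0 in the 4 libraries, and PSMB11, the thymus-specific beta subunit, reached at most 0.10 TPM, a unit that gives the share of a library's transcripts taken by a gene, corrected for length. The other 44 averaged 1 TPM or more and were compared, among 12985 genes that met the same minimum.

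The study examined the consequences of silencing SKP2, the F-box protein that selects substrates for a ubiquitin ligase, in fusion-negative rhabdomyosarcoma. RNA-seq was performed on RD and JR1 cells, established lines of this muscle-lineage tumor, each infected with a pLKO.1-puro lentivirus carrying either the hairpin shSKP2.2 (labelled as SKP2 knockdown, here shSKP2) or a non-targeting sequence (labelled wild type, here shSCR). All 4 groups therefore carried an integrated vector and a puromycin resistance gene, and knockdown rested on 1 hairpin. There was 1 poly-A library per line and condition, so no difference below has a replicate check and none carries a p-value.

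SKP2 itself measured 92.84 TPM in RD shSCR and 7.40 TPM in RD shSKP2, and 46.47 TPM in JR1 shSCR and 2.72 TPM in JR1 shSKP2. The muscle markers MYOD1, MYOG, DES, CHRNA1 and CDH15 lay between 31.57 and 424.83 TPM in every library, whereas the 4 leukocyte markers (PTPRC, CD3E, CD14 and LYZ) summed to at most 0.86 TPM. The endothelial markers PECAM1 and CDH5 summed to at most 0.07 TPM, and the epithelial marker EPCAM reached at most 0.16 TPM. Short structural RNAs were 2984 genes picked by symbol. They made up 58.6% of TPM in RD shSCR, 69.1% in RD shSKP2, 66.5% in JR1 shSCR and 72.1% in JR1 shSKP2. TPM are shares of a fixed total, and on the log2 scale the change of all tested genes had a median of -0.27 (RD) and -0.21 (JR1). The share of these RNAs thus moved with the knockdown in both lines, and the changes of the groups of proteasome genes are given below with and without them.

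The proteasome is the protease that destroys proteins tagged with ubiquitin. Its core particle is a barrel of stacked alpha and beta rings, with the catalytic threonines of PSMB5, PSMB6 and PSMB7 facing the inner chamber. The regulatory particle caps the barrel: its base holds a ring of ATPases that unfold substrates, and its lid holds PSMD14, which strips ubiquitin. Ubiquitin receptors of the particle catch the tagged protein. In cells exposed to interferon, PSMB10 and other inducible catalytic subunits replace the constitutive ones, and the PSME1 and PSME2 cap (PA28) can take the place of the regulatory particle. SKP2 substrates such as p27Kip1 are degraded by this machine, and rapid protein turnover accompanies both proliferation and differentiation of muscle cells.

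All proteasome genes but PSMA8 and PSMB11 were expressed in both lines, at levels between 3.38 and 379.66 TPM. The 46 genes summed to 3612 TPM in RD shSCR, 2735 TPM in RD shSKP2, 3015 TPM in JR1 shSCR and 2367 TPM in JR1 shSKP2, or 0.361%, 0.273%, 0.302% and 0.237% of all TPM. When the short structural RNAs were removed from the total, the same shares were 0.873%, 0.885%, 0.900% and 0.849%. The share of the remaining RNA devoted to the proteasome was thus higher with shSKP2 in RD and lower in JR1, by small amounts in either direction.

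The levels of individual subunits, which TPM express per unit of transcript length, were far from equal although most are needed in the same number per particle. PSMA7, PSMB4 and PSMB7 took the first places, and PSMA5 was the lowest subunit of the alpha ring. In that ring the highest gene exceeded the lowest by 26.9-fold in RD shSCR, 30.9-fold in RD shSKP2, 19.7-fold in JR1 shSCR and 22.5-fold in JR1 shSKP2. The pattern was shared by the libraries: across the 44 genes, log2 levels correlated between any pair of libraries with a Pearson r from 0.938 to 0.977. These points share the reference transcript lengths, and the r is a description. Close neighbours in the ranking changed places easily, since 5 of 43 adjacent pairs kept their order in all 4 libraries. The pairs were PSMB7 above PSMD8, PSMB1 above PSMD4, PSMD4 above PSMD2, PSMD13 above PSMD5 and PSMD5 above PSMD6.

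**Figure D1:**
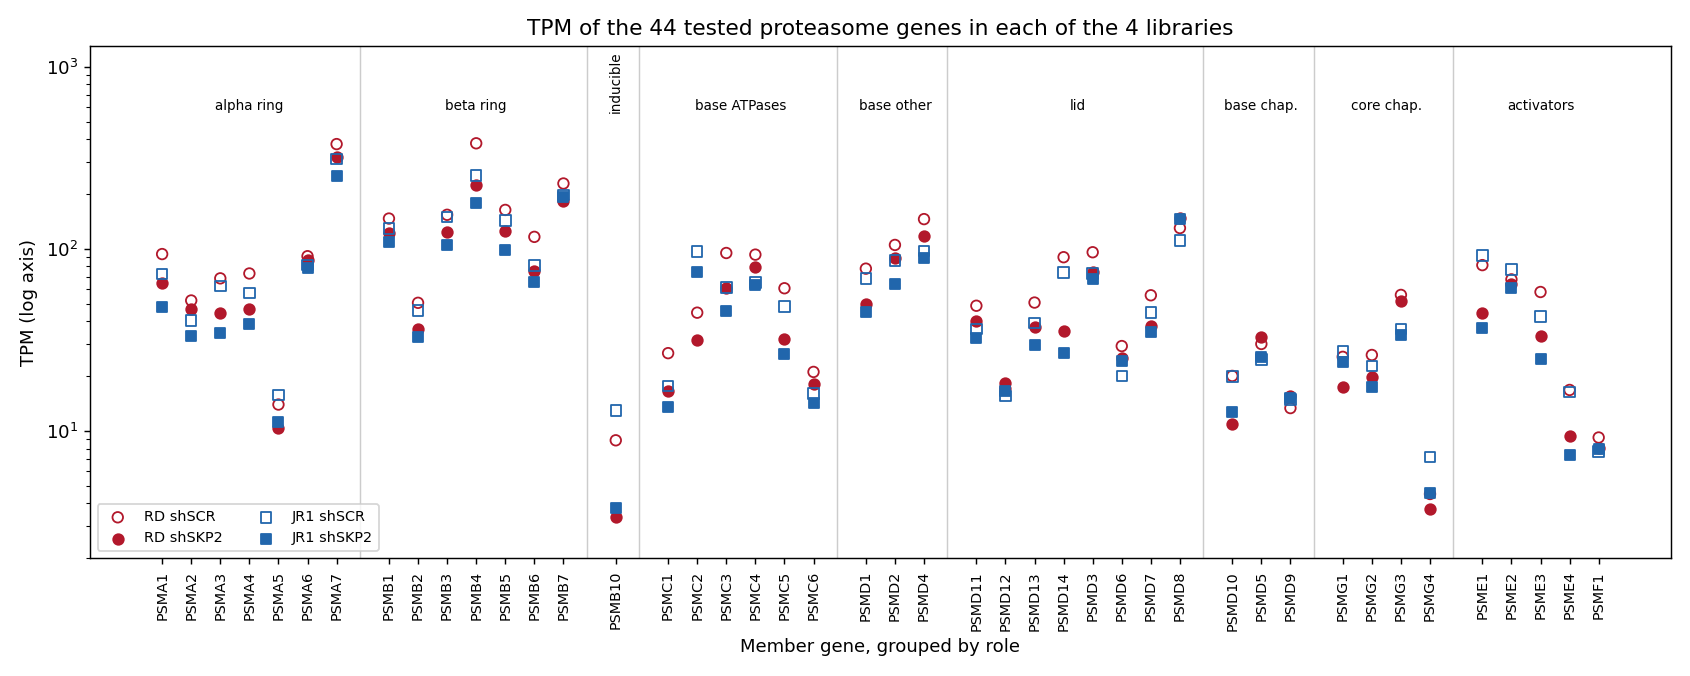
TPM (log axis) of each of the 44 tested proteasome genes, grouped by role on the horizontal axis. Open symbols are shSCR and filled symbols shSKP2 libraries, circles RD and squares JR1, with 1 library per symbol. PSMA7 and PSMB4 stand highest in every library together with PSMB7, and PSMB10 and PSMG4 lowest with shSKP2.

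With shSKP2 most proteasome genes measured lower, by an amount close to that of all genes. In RD 40 of 44 were below 0, beside 75% of all tested genes, and in JR1 38 of 44, beside 68.9%. Over the 44 the median was -0.38 for RD and -0.36 for JR1 on the scale of log2 of TPM + 1, which lay 0.11 and 0.15 below the median of all genes. After the short structural RNAs were removed, 15218 genes averaged 1 TPM or more, in place of 12985, so the genes compared were not the same. Of the members 21 of 44 were then below 0 in RD, beside 39.2% of the 15218 genes, and 28 of 44 in JR1, beside 48.9%. The median of the 44 was 0.03 in RD, where that of the 15218 genes was 0.12. In JR1 it was -0.11, where that of the 15218 genes was 0.01. The general lowering of the proteasome genes in RD therefore depended on the scale. In these bulk libraries fewer cells with a transcript and less of it per cell cannot be told apart.

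Few members passed the limit of a change of 1, which is 2-fold. PSMD14 and PSMB10 fell in RD, 2 of 44 beside 7.37% of all tested genes, and PSMD14, PSMB10, PSME1 and PSME4 fell in JR1, 4 of 44 beside 9.05%. Without the short structural RNAs 0 members passed the limit in RD and 3 in JR1, where PSME4 no longer did. None rose by as much in either line, where 1.08% of all genes did so in RD and 1.78% in JR1. At a limit of 1.5-fold, 14 of 44 were lower in RD beside 23.2% of genes, and 10 of 44 in JR1 beside 23.4%. These counts lay near the share of all genes and are not a result about the members. The changes were alike in the lines: across the 44 genes those in RD and JR1 correlated (Pearson r 0.860, Spearman rho 0.824). The correlation is a description, since each line has 1 library per condition and genes of a library are not independent. Without PSMD14 and PSMB10 the Pearson r was 0.798, and over all 12985 genes it was 0.617.

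**Figure D2:**
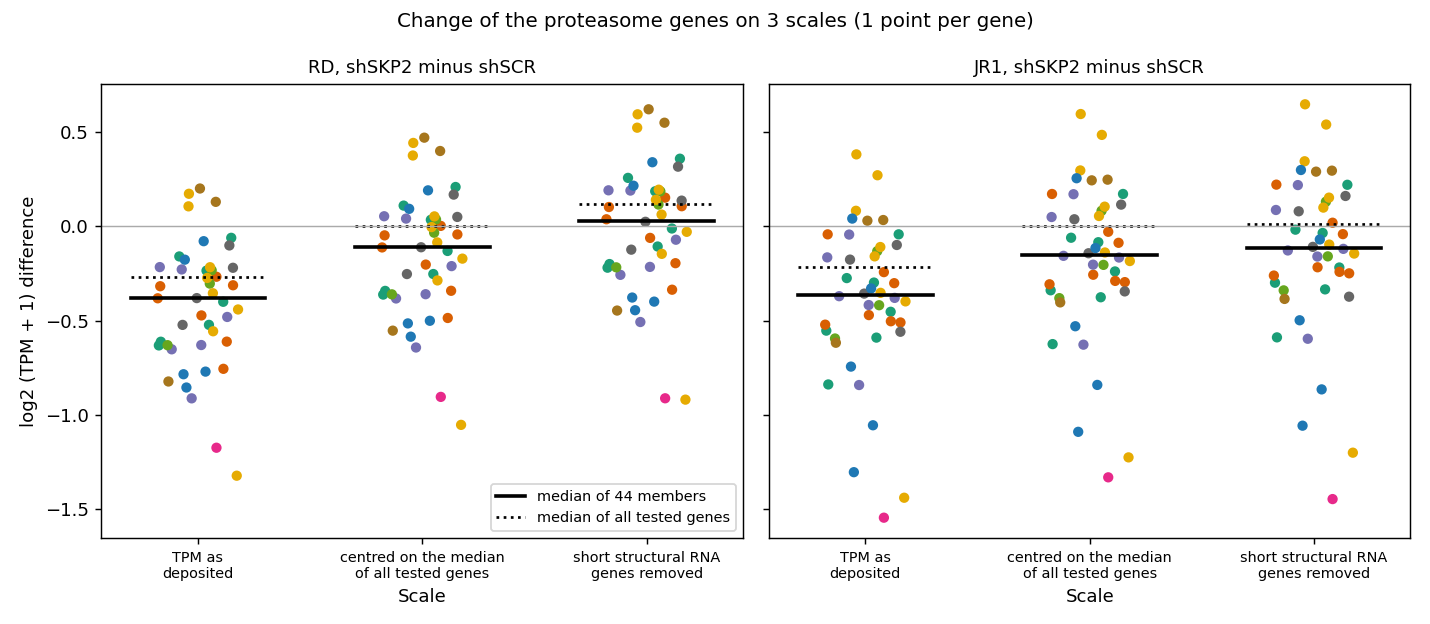
Changes of the same 44 genes on 3 scales in RD (left) and JR1 (right), colored by role with the colors of the plot of both lines. Solid bars are the medians of the 44 genes and dotted bars those of all tested genes, 15218 without the short structural RNAs. The members' median passes from -0.38 to 0.03 in RD and from -0.36 to -0.11 in JR1 once the short structural RNAs are removed, while PSMD14 and PSMB10 stay lowest.

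PSMD14, the metalloprotease of the lid that cuts ubiquitin chains off substrates as they enter the core, had, with PSMB10, the lowest change of the members. By the mean of both lines PSMD14 was the lower with a pseudocount of 1 TPM and PSMB10 with 0.1 TPM or without the short structural RNAs. It measured 89.97 TPM in RD shSCR and 35.35 TPM in RD shSKP2, and 74.31 TPM in JR1 shSCR and 26.75 TPM in JR1 shSKP2. The shSKP2 libraries thus held 39.3% of the control level in RD and 36.0% in JR1, and both lay below both controls. On the log2 scale the change was -1.32 in RD and -1.44 in JR1. Without the short structural RNAs it was -0.92 and -1.20, below the limit of 1 in RD. The gene lies at chr2:161308425-161411717 (GRCh38). A pseudogene bears its name, and reads shared with it could have been divided between the genes. The same limit holds for all 17 members with a named pseudogene, which include PSMB7, PSMC2, PSMD7 and PSMD8.

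The other lid subunits, which form a scaffold around PSMD14, did not share this change. The ratio of PSMD14 to the median of the 7 other PSMD genes of the lid was 1.77 in RD shSCR and 0.943 in RD shSKP2, and 1.89 in JR1 shSCR and 0.827 in JR1 shSKP2. This ratio is taken within a library and does not depend on the share of structural RNA. PSMD7, with which PSMD14 pairs to form the active enzyme, measured 55.60 and 37.47 TPM in RD shSCR and shSKP2, and 44.87 and 34.91 TPM in JR1. PSMD8, the most abundant of the 8 lid genes with a PSMD symbol, whose product is the last to join the lid, had higher values with shSKP2. It measured 130.10 and 146.75 TPM in RD shSCR and shSKP2, and 111.35 and 145.36 TPM in JR1 shSCR and shSKP2, with changes of 0.17 and 0.38 that did not reach the limit. PSMD8 exceeded the median of the other PSMD lid genes by 2.57-fold in RD shSCR and 3.96-fold in RD shSKP2, and by 2.84-fold in JR1 shSCR and 4.92-fold in JR1 shSKP2.

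PSMD12, the lowest of these lid transcripts, measured 17.01 and 18.38 TPM in RD shSCR and shSKP2 and 15.55 and 16.52 TPM in JR1. Its changes were 0.11 and 0.08, or 0.52 and 0.34 without the short structural RNAs. PSMD6 measured 29.26 and 25.03 TPM in RD but 20.02 and 24.36 TPM in JR1, so that its value was lower with shSKP2 in RD and higher in JR1. For the 8 lid genes as a group the median change was -0.31 in RD, with 6 of 8 below 0, and -0.13 in JR1, with 5 of 8 below 0. The group median was 0.10 in RD and 0.13 in JR1 without the short structural RNAs, close to or above the median of all genes on that scale.

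The inducible catalytic subunit PSMB10, which takes the place of PSMB7 in the immunoproteasome, was the other member that fell in both lines. It measured 8.89 TPM in RD shSCR, 3.38 TPM in RD shSKP2, 12.96 TPM in JR1 shSCR and 3.78 TPM in JR1 shSKP2. The lines thus began at different levels and ended at nearly the same one. It changed by -1.18 (RD) and -1.55 (JR1), and by -0.91 and -1.45 without the short structural RNAs. PSMB10 lies at chr16:67934506-67936850 (GRCh38).

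The constitutive subunit that PSMB10 replaces, PSMB7, measured 228.44 and 183.05 TPM in RD shSCR and shSKP2 and 197.26 and 191.47 TPM in JR1 shSCR and shSKP2. For every 100 TPM of PSMB7 there were 3.89 TPM of PSMB10 in RD shSCR, 1.85 in RD shSKP2, 6.57 in JR1 shSCR and 1.97 in JR1 shSKP2. PSMB10 was thus a minor transcript next to its constitutive counterpart in all 4 libraries, and less so in the controls.

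PSME1 and PSME2 encode the alpha and beta subunits of PA28, the interferon-inducible cap that speeds release of peptides from the core. The genes lie within a few kilobases of each other, at chr14:24136194-24138962 and chr14:24143365-24146646 (GRCh38). PSME1 measured 81.40 TPM in RD shSCR and 44.54 TPM in RD shSKP2, and 92.11 TPM in JR1 shSCR and 36.69 TPM in JR1 shSKP2, a change of -0.86 and -1.30. PSME2 measured 67.96 and 64.28 TPM in RD and 77.03 and 61.09 TPM in JR1, with changes of -0.08 and -0.33. With the short structural RNAs removed the changes were -0.45 and -1.06 for PSME1 and 0.34 and -0.07 for PSME2. The partners therefore moved unequally: PSME1 stood above PSME2 in both controls and below it in both knockdown libraries. The ratio of PSME1 to PSME2 was 1.20 in both controls, 0.693 in RD shSKP2 and 0.601 in JR1 shSKP2. PSME2 has 6 named pseudogenes, and the neighbouring gene EMC9 overlaps PSME1 in the annotation of the tables, so that how the counting divided shared reads bears on both values.

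For PSMB10, PSME1 and PSME2 together, the middle value was that of PSME1, -0.86 and -1.30. Genes that interferon induces were lower as a list: of 13 tested, 9 fell in RD and 13 in JR1, beside 7.37% and 9.05% of all tested genes. Their medians were -2.67 and -2.86, or -2.33 and -2.60 without the short structural RNAs. OASL, the lowest in RD, measured 131.51 TPM in RD shSCR and 1.46 TPM in RD shSKP2. IRF1, a factor that drives inducible proteasome genes, measured 8.28 TPM in RD shSCR and 3.77 TPM in RD shSKP2, and 13.42 TPM in JR1 shSCR and 3.90 TPM in JR1 shSKP2. The levels of these genes moved in the direction of PSMB10 and PSME1. PSME2 changed by -0.08 in RD and -0.33 in JR1, or 0.34 and -0.07 without the short structural RNAs. The part of the interferon-induced genes in the result was not tested.

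**Figure D3:**
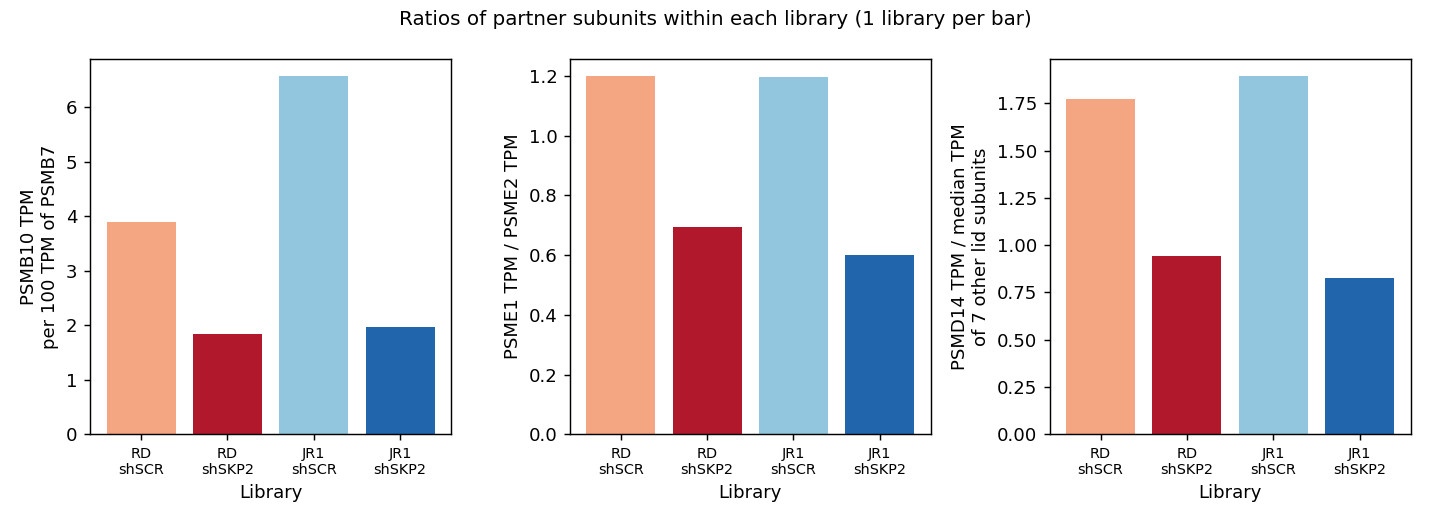
Ratios within each library (1 library per bar, axes from 0): TPM of PSMB10 per 100 TPM of PSMB7 (left), PSME1 over PSME2 (middle) and PSMD14 over the median of the 7 other lid subunits (right). Each ratio is lower in the shSKP2 library (dark) than in the control (light) of its line, for example 1.97 against 6.57 for PSMB10 in JR1.

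The promoters of the inducible members were read because interferon acts on genes through the interferon-stimulated response element. RefSeq promoter windows (GRCh38.p14, 250 bases before to 50 after the start) were at hand for 40 of the 46 genes. The element was searched as GAAANNGAAA on both strands, and overlapped no match of the other 8 motifs searched. It was found in 6 of 40 member genes and in 4.38% of all 27305 genes with a window. The matched stretches are shown on the strand of the gene, from 5′ to 3′, with the match in capitals, since they include PSMB10 and both PA28 genes.
PSMB10: ggtaaaggcGAAAGCGAAAgcaggaagt
PSME1: ccctaccgcTTTCGCTTTCccttcgcgg
PSME2: ctggggagtGAAAGCGAAAgcccgggcg
PSMG4: tccggggccGAAAGCGAAAgcgcgctcg
PSMA4: tagtgaagaGAAAATGAAAggagagcgc
PSMB4: cgtctacagGAAAAAGAAAgaaatgaca

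The stretches lie at chr16:67936853-67936880 (minus strand, PSMB10), chr14:24136190-24136217 (plus, PSME1), chr14:24146620-24146647 (minus, PSME2), chr6:3258905-3258932 (plus, PSMG4), chr15:78540156-78540183 (plus, PSMA4) and chr1:151399496-151399523 (plus, PSMB4). Positions are counted from the RefSeq start of each window, which for PSME2 and PSMG4 lies inside the gene interval of the expression tables. The match begins 21 bases before that start in PSMB10, 28 in PSME2 and 33 in PSMG4. In PSME1 it lies 5 bases past the start and on the opposite strand. PSMB10, PSME1, PSME2 and PSMG4 carry the same 10 letters, GAAAGCGAAA, which 0.125% of all genes with a window also hold. The 4 genes with identical letters did not change alike: in RD their changes were -1.18, -0.86, -0.08 and -0.22, and in JR1 -1.55, -1.30, -0.33 and -0.56. The 6 genes with a match had medians of -0.69 (RD) and -0.56 (JR1), against -0.39 and -0.38 for the 32 tested members with a window and no match. PSMA4 and PSMB4, whose letters differ, weigh on these medians, with changes of -0.63 and -0.76 in RD and -0.55 and -0.50 in JR1. Without the short structural RNAs their changes were -0.22 and -0.34 in RD and -0.30 and -0.24 in JR1. The medians are a description and their difference was not tested. PSMD14 was among the members with no match in its window. A match is a description of letters and not evidence of binding.

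Other elements were spread over the family as follows. The antioxidant response element, searched as TGACNNNGC, through which NFE2L1 restores proteasome genes when the protease is inhibited, was present in 14 of 40 members and in 16.1% of all genes. The ETS site CCGGAAGT was present in 10 of 40 and 4.95%, the GC box GGGCGG in 27 of 40 and 48.3%, and CCAAT in 19 of 40 and 39.7%. The muscle-type E box CAGCTG, a form bound by MYOD, was present in 5 of 40 and 21.1%, and the gamma-activated site TTCNNNGAA in 7 of 40 and 9.38%. Neither the heat shock element GAANNTTC (8.21% of all genes) nor the cyclic AMP response element TGACGTCA (2.25%) was found in a member window.

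The remaining activators were lower in both lines. PSME4, the large single-chain cap known as PA200, measured 16.80 TPM in RD shSCR and 9.43 TPM in RD shSKP2, and 16.38 TPM in JR1 shSCR and 7.36 TPM in JR1 shSKP2, with changes of -0.77 and -1.06, or -0.40 and -0.87 without the short structural RNAs, which is short of the limit. PSME3, the nuclear PA28 gamma cap with which the core degrades small proteins without ubiquitin, measured 57.95 and 33.21 TPM in RD and 42.41 and 24.91 TPM in JR1. Its changes were -0.79 and -0.74, or -0.38 and -0.50 without those RNAs. The ratio of PSME1 to PSME3 was 1.40 and 1.34 in RD shSCR and shSKP2, and 2.17 and 1.47 in JR1. PSMF1, an inhibitor of the core, stood at 9.21 and 8.03 TPM in RD and 7.71 and 7.96 TPM in JR1. The 5 genes of this group had medians of -0.77 (RD) and -0.74 (JR1), the lowest of the groups with more than 1 gene. It was -0.38 and -0.50 after the short structural RNAs were removed.

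In the core, the 7 expressed alpha subunits, which form the outer rings and gate, were all below 0 in both lines, with medians of -0.40 and -0.45. PSMA7 measured 375.89 and 319.15 TPM in RD shSCR and shSKP2, and 310.91 and 252.59 TPM in JR1. PSMA5 measured 13.97 and 10.34 TPM in RD and 15.75 and 11.23 TPM in JR1. The ring was not uniform: PSMA6 was at 91.12 and 87.29 TPM in RD and 81.29 and 78.89 TPM in JR1, whereas PSMA3 was at 68.86 and 44.69 TPM in RD and 62.46 and 34.47 TPM in JR1. The changes of PSMA6 were -0.06 and -0.04, or 0.36 and 0.22 without the short structural RNAs. Those of PSMA3 were -0.61 and -0.84, or -0.20 and -0.59 without them, and did not reach the limit. Without the short structural RNAs 4 of the 7 were below 0 in RD and 6 of 7 in JR1.

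The 7 constitutive beta subunits were likewise all below 0, with medians of -0.38 in RD and -0.47 in JR1. After removal of the short structural RNAs 3 of 7 were below 0 in RD and 5 of 7 in JR1, with medians of 0.04 and -0.22. PSMB5, the chymotrypsin-like subunit and target of bortezomib, measured 163.54 and 125.26 TPM in RD shSCR and shSKP2 and 142.76 and 99.12 TPM in JR1. PSMB6, the caspase-like subunit, measured 116.35 and 75.78 TPM in RD and 81.10 and 65.60 TPM in JR1. PSMB4, a structural subunit, measured 379.66 and 224.35 TPM in RD and 253.38 and 178.38 TPM in JR1, with the lowest mean change of the ring. The catalytic transcripts kept their order in each library, with PSMB7 above PSMB5 and PSMB5 above PSMB6. PSMB2 was the lowest gene of the ring, at 50.55 and 36.14 TPM in RD and 45.83 and 32.78 TPM in JR1.

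The ATPases of the base, which thread the substrate into the core, were all below 0, with medians of -0.56 in RD and -0.38 in JR1. Once the short structural RNAs were removed, 4 of 6 were below 0 in each line, with medians of -0.14 and -0.12. PSMC5 had the lowest change, -0.91 and -0.84, and measured 60.76 and 31.80 TPM in RD and 48.27 and 26.48 TPM in JR1. PSMC4, which had the highest mean level, was at 92.95 and 79.16 TPM in RD and 65.38 and 63.39 TPM in JR1. PSMC6 had the lowest mean level, at 21.10 and 18.02 TPM in RD and 16.02 and 14.18 TPM in JR1. Of the 3 non-ATPase subunits of the base, the ubiquitin receptor PSMD4 measured 145.61 and 117.75 TPM in RD and 97.55 and 88.93 TPM in JR1. The scaffold PSMD1 measured 77.85 and 49.92 TPM in RD and 68.79 and 45.19 TPM in JR1, with changes of -0.63 and -0.60. These 3 genes had medians of -0.30 (RD) and -0.42 (JR1), and of 0.12 and -0.16 without the short structural RNAs.

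The assembly chaperones differed among themselves. PSMD5 and PSMD9, which hold pairs of ATPases during assembly of the base, had values above 0, of 0.13 and 0.20 in RD and 0.03 and 0.03 in JR1. PSMD5 measured 30.05 and 32.97 TPM in RD and 24.77 and 25.37 TPM in JR1, and PSMD9 13.36 and 15.50 TPM in RD and 14.93 and 15.26 TPM in JR1. PSMD10, the third of these chaperones and also known as gankyrin, an oncoprotein that binds CDK4 and MDM2, measured 20.06 and 10.90 TPM in RD and 19.98 and 12.67 TPM in JR1. Its changes were -0.82 and -0.62. Among the chaperones of the core, PSMG3 measured 55.85 and 51.98 TPM in RD and 36.31 and 33.83 TPM in JR1, and PSMG4 measured 4.51 and 3.73 TPM in RD and 7.21 and 4.57 TPM in JR1. Of the 3 base chaperones 1, PSMD10, was below 0 in each line without the short structural RNAs, and of the 4 core chaperones 1 in RD and 2 in JR1.

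The 4 proteasome components with other symbols were below 0 in both lines, with medians of -0.35 in RD and -0.38 in JR1. Without the short structural RNAs these medians were 0.04 and -0.15. The maturation factor POMP had the lowest change of them and measured 22.43 and 15.50 TPM in RD and 22.06 and 13.47 TPM in JR1. The 12 genes of proteins that bind the particle or bring substrates to it had medians of -0.12 and -0.01, or 0.30 and 0.25 without those RNAs. The 4 genes of the VCP segregase, which pulls tagged proteins out of complexes, were all below 0 with medians of -0.53 and -0.57. These medians were -0.12 and -0.32 without the short structural RNAs. VCP measured 172.05 and 104.82 TPM in RD and 116.16 and 64.69 TPM in JR1.

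None of the 4 genes behind the transcription of proteasome subunits (NFE2L1, NFE2L2, DDI2 and NGLY1) passed the limit in either line. Their medians were -0.26 and -0.20, or 0.13 and 0.04 without the short structural RNAs. NFE2L1 itself measured 99.03 and 89.98 TPM in RD and 89.06 and 79.47 TPM in JR1. None of the 6 genes of ubiquitin and its activation passed the limit, with medians of -0.30 and -0.28, or 0.12 and -0.01 without those RNAs. Other large complexes had medians that were not tested against the proteasome: -0.34 and -0.09 for 81 ribosomal proteins, -0.30 and -0.20 for 78 mitochondrial ribosomal proteins, -0.21 and -0.15 for 38 complex I subunits, -0.18 and -0.22 for the 8 CCT chaperonin genes and -0.34 and -0.23 for the 10 genes of the COP9 signalosome. The corresponding medians of the proteasome genes were -0.38 and -0.36. Without the short structural RNAs the medians were 0.08 and 0.18 for ribosomal proteins and 0.10 and 0.05 for mitochondrial ribosomal proteins. On that scale they were 0.20 and 0.11 for complex I, 0.24 and 0.04 for CCT and 0.07 and 0.01 for the COP9 signalosome. Those of the proteasome genes were then 0.03 and -0.11.

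Between the lines, 36 of 44 proteasome genes were higher in RD than in JR1 with shSCR, beside 71.4% of all tested genes, and 37 of 44 with shSKP2, beside 67.8%. The median difference was 0.25 in both conditions, where that of all genes was 0.23 and 0.17. Without the short structural RNAs the members' median was -0.04 with shSCR and 0.10 with shSKP2. None was higher in RD by 1 or more, which 6.5% of all genes were with shSCR and 5.39% with shSKP2. 1 of 44, PSMC2, was lower in RD by 1 or more in each condition, beside 3.44% of genes with shSCR and 2.7% with shSKP2. With 1 library per line, line and library cannot be told apart.

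PSMC2, an ATPase of the base, measured 44.63 and 31.69 TPM in RD shSCR and shSKP2 but 96.90 and 74.23 TPM in JR1. The lowest JR1 value lay above the highest RD value. The other ATPases had the opposite order, so that PSMC2 stood at 0.735 times their median in RD shSCR and 2.01 times in JR1 shSCR, and at 0.997 and 2.80 times in the shSKP2 libraries. Its ranks among the 46 genes were 30 and 31 in RD, and 9 and 10 in JR1. The difference was -1.10 with shSCR and -1.20 with shSKP2.

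The genes beside PSMC2 at chr7:103344405-103369395 (GRCh38) shared this difference. All 26 tested genes within 1 megabase were lower in RD than in JR1 in both conditions, 20 of them by 1 or more with shSCR and 18 with shSKP2. Their differences ranged from -2.07 to -0.57 with shSCR, around a median of -1.30, and from -2.10 to -0.29 with shSKP2, around -1.28. DNAJC2, whose annotated interval overlaps that of PSMC2, measured 18.39 and 14.18 TPM in RD and 44.43 and 28.94 TPM in JR1. PMPCB measured 20.81 and 12.85 TPM in RD and 56.70 and 43.19 TPM in JR1. Several of the 26 are copies of one another, such as SPDYE2 and SPDYE2B, and their reads may have been shared.

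Over all 661 tested genes of chromosome 7 the median difference was 0.22 in both conditions. SEM1, a small lid subunit encoded 6.63 megabases before PSMC2, also differed: it measured 133.36 and 104.71 TPM in RD and 383.90 and 289.98 TPM in JR1, a difference of -1.52 with shSCR and -1.46 with shSKP2. The neighbours were examined after the value of PSMC2 had been seen, and the number of gene copies was not measured.

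**Figure D4:**
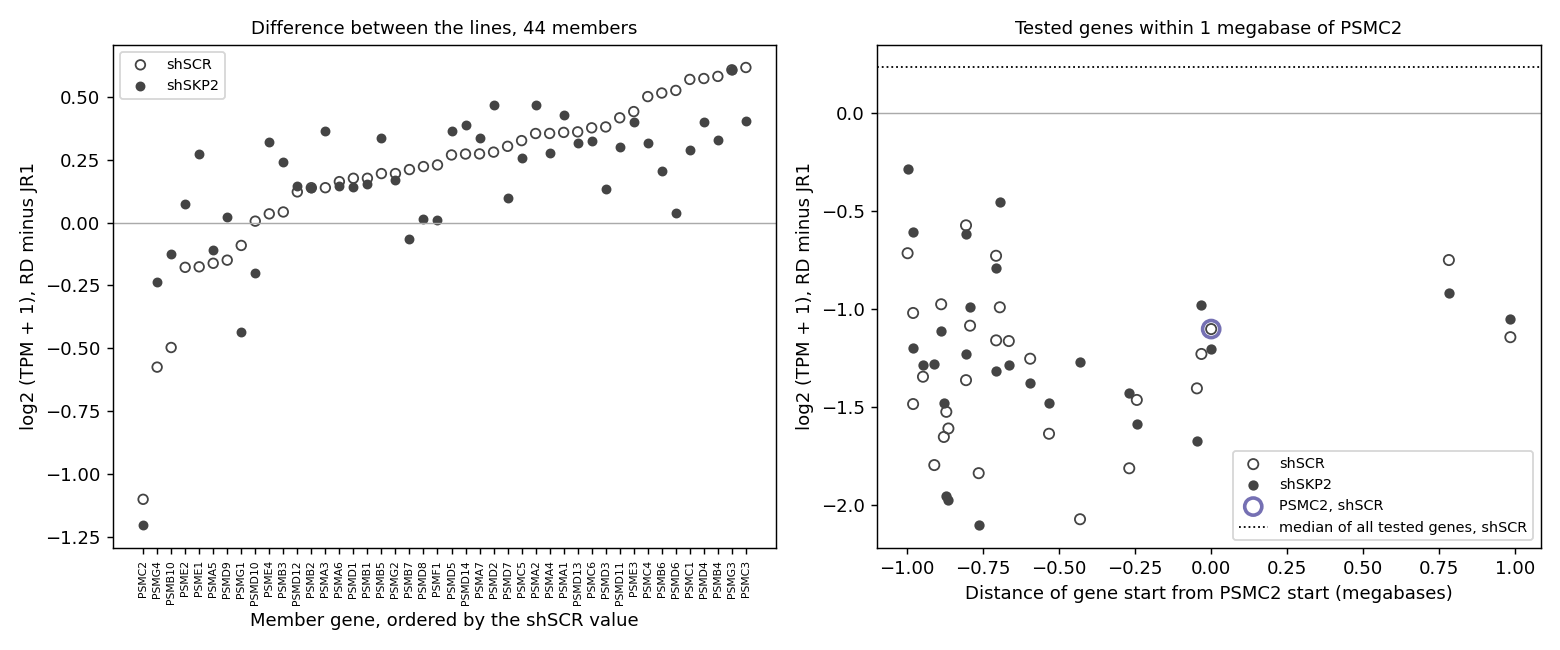
Left: difference between RD and JR1 in log2 of TPM + 1 for the 44 proteasome genes, ordered by the shSCR value. Right: the same difference for the 27 tested genes from 1 megabase before to 1 megabase after PSMC2, by distance of their start from that of PSMC2. Open circles are shSCR and filled circles shSKP2. PSMC2 stands alone among the members at -1.10 and -1.20, and all its neighbours lie below 0.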

How the data were processed

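RNA was extracted from RD and JR1 cells expressing shSCR or shSKP2 with a column kit, and poly-A libraries were made with a directional kit and read as pairs of 150 bases. The authors aligned reads to GRCh38 with STAR 2.7.9a and deposited TPM per gene from RSEM 1.3.2. Read counts were not used here, so depth and counting error are unknown, and the strand setting of the counting was not given in the sources used here. Samples were grouped by their labels. Changes were differences of log2 of TPM + 1, among genes that averaged 1 TPM or more over the 4 libraries. A pseudocount of 1 understates changes of low genes. Every member could be named. Values per library were given for the highest and lowest member of each role by level and by change, the catalytic subunits, the activators and members past the limit. Genes next to PSMC2 were named after their values were seen, as were IRF1, NFE2L1 and VCP. The members, although picked by symbol, and the lists were chosen with earlier results of these data known, and the interferon-stimulated list is no independent support. Short structural RNA genes (2984, by symbol) were removed for an alternative scale. The minimum mean of 1 TPM was applied again on that scale, and 15218 genes met it. Python 3.11.15, numpy 2.4.6, pandas 2.3.3 and matplotlib 3.10.9 were used. The counting of calls was tested on simulated libraries with planted changes and an assumed noise, which cannot give the precision of the real changes.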

Additional observations from a re-analysis of the deposited data

Results flagged for a closer look

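The values of 2 members moved in opposite directions in the lines, lower with shSKP2 in RD and higher in JR1. The log2 change of PSMD6, a lid subunit, was -0.22 in RD and 0.27 in JR1, and differed by -0.49 between the lines. The change of PSMF1, an inhibitor of the core, was -0.18 in RD and 0.04 in JR1, and differed by -0.22. With 1 library per line and condition the difference was not tested. Without the short structural RNAs both genes had values above 0 in both lines, 0.19 and 0.54 for PSMD6 and 0.22 and 0.30 for PSMF1.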

How the results depend on the processing

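Centring on the median of all tested genes left 1 member past the limit in RD and 3 in JR1, and 11 members with opposite directions in the lines in place of 2. It moved the members' median to -0.11 in RD and -0.15 in JR1, and that of PSMB10, PSME1 and PSME2 to -0.59 and -1.09. The median difference between the lines became 0.017 with shSCR and 0.075 with shSKP2. Removal of the short structural RNAs left 0 members past the limit in RD and 3 in JR1, and 9 with opposite directions. It moved the members' median to 0.030 in RD, which turned its sign, and to -0.11 in JR1, and the median of PSMB10, PSME1 and PSME2 to -0.45 and -1.06. The difference between the lines became -0.039 with shSCR, which turned its sign, and 0.10 with shSKP2. A limit of 1.5-fold gave 14 lower members in RD and 10 in JR1. A pseudocount of 0.1 TPM, a minimum mean of 5 TPM and no minimum kept the direction and moved no median or count of the members past its margin. These rescalings apply 1 factor to a library, and the cause of the growth of the structural RNA share was not tested. No paired analysis was possible because a comparison within a line has 1 library per condition, and a model that takes the lines as replicates was not fitted. Depth is unknown, so the precision of low genes such as PSMB10 and PSMG4 cannot be given.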
